A study of Mus musculus with 32 samples.

Results

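The genes described here are Arg1 and 9 other genes by which macrophage activation states are commonly told apart: Arg2, Nos2, Chil3, Mrc1, Retnla, Cd163, Il4ra, Il10 and Il10ra. They were chosen by name, as the 10 genes whose symbol is in that list, out of 19505 genes with a symbol on the array. Each was read by 1 probe. These genes and the gene lists below were chosen with earlier results of these data known. Their counts beside the shares of all genes are therefore descriptions and no independent test. The samples were total RNA of male wild-type C57BL/6J mice aged 6 to 12 weeks and weighing 20 to 25 g. The injured groups were spinal cord after spinal cord photothrombosis (scPT) and cerebrum after cerebral photothrombosis (cPT), each at day 1, day 3 and day 7, and the controls of each model were labelled Kontrolle scPT and Kontrolle cPT. Photothrombosis closes small vessels by lighting a dye in the blood, which leaves an ischaemic lesion. Every group held 4 arrays, 32 in all. The labels do not say whether controls had surgery, or whether the 4 arrays of a group came from 4 mice, so each p-value measures the spread between these samples.

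The deposited values are log2 values from which each probe's median had been subtracted, so 0 is a probe's own middle and not a low level. They carry no level above background, and the level of one gene cannot be set against that of another. Controls and day 1 were centred together, and day 3 and day 7 were each centred apart. Values of day 3 and day 7 were therefore brought back to the controls with a rebuilt offset for each probe. A change from control at those days was called only beyond a bound on that offset, of at least 0.196 at day 3 and 0.262 at day 7 (log2). Day 1 was tested against 0, so counts of calls at day 1 and at the later days have unlike thresholds. Tests used limma over all 32 arrays, with Benjamini-Hochberg adjustment over all 19505 genes and a threshold of 0.05. Differences below are log2 differences ± SE, with n = 4 arrays in each group.

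Macrophages take up arginine and use it in competing ways. Arginase 1, the product of Arg1, splits it into ornithine and urea, and inducible nitric oxide synthase, the product of Nos2, turns it into nitric oxide. In mouse macrophages IL-4 and IL-13 act through the IL-4 receptor and STAT6 and switch on Arg1, Chil3, Retnla and Mrc1, which is called alternative activation. Interferon and bacterial products switch on Nos2, which is called classical activation, and IL-10 acts through its own receptor and STAT3. In nervous tissue these genes are read as signs of resident microglia, of macrophages at the borders and of cells that enter from the blood.

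Promoter sequence from RefSeq (GRCm38.p6, 250 bases before to 50 after the gene start) was at hand for 5 of the 10 genes: Chil3, Mrc1, Retnla, Cd163 and Il4ra. The genes without an entry are Arg1, Arg2, Nos2, Il10 and Il10ra. Both strands were searched for these sets of letters: the STAT6 type (TTC and GAA with any 4 bases between them), the C/EBP type (TTGCNNAA), the NF-kappaB type and the AP-1 type (TGANTCA). Retnla is shown because it held matches, which are in capitals, and Il4ra because it was called higher after injury in every comparison with control and held none.
Retnla, chr16:48842359-48842658, plus strand: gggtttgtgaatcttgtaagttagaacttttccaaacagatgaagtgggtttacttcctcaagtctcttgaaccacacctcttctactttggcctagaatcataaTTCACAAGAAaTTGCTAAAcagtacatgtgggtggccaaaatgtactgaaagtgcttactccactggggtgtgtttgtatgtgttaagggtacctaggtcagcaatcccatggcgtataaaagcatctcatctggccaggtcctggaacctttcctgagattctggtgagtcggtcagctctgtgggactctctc
Il4ra, chr7:125552021-125552320, plus strand: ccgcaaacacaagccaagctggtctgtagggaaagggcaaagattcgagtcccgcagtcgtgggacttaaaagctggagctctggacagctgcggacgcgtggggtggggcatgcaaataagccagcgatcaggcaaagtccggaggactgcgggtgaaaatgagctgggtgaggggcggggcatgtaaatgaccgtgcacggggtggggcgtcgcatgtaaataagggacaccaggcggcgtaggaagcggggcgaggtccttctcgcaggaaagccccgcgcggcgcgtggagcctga
In Retnla, TTCACAAGAA, a STAT6-type match, lay at -145 to -136 from the start and TTGCTAAA, a TTGCNNAA match, at -134 to -127. None of these sets was found in Chil3, Mrc1, Cd163 or Il4ra. Of 32851 promoters in the same table, 6.95% held the STAT6 type, 10.8% TTGCNNAA, 0.411% the NF-kappaB type and 7.81% TGANTCA, so matches of most of these kinds are frequent. The letters describe these windows only.

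The tissues matched their labels: all 4 measured forebrain genes were lower and 5 of 6 trunk Hox genes higher in spinal controls than in cerebral controls. Libraries within groups were not alike in every respect. The mean of 6 skeletal muscle genes was 4.38, 3.87, 1.76 and 0.34 on the 4 spinal control arrays, against -0.25 to -0.15 in cerebral controls. Averaged over arrays it was 2.59 in spinal controls, and 0.19, 0.56 and 0.43 in the cord at days 1, 3 and 7. Single injured cord arrays reached 0.42, 1.67 and 0.83 at these days. Injured cord and spinal controls thus differed in muscle signal as well. Pmch, a hypothalamic neuropeptide gene, read 6.62 and 6.75 on cerebral control replicates 1 and 2, and 0.16 and 0.02 on the others. The first spinal day 3 array stood apart, with a limma array weight of 0.225 and a microglial marker mean of -0.68, against 0.88 to 1.07 on the other 3. For the genes chosen by name, fits left out 1 array at a time or kept only controls 3 and 4 of a tissue. Where such a fit ended a call described below, that is given. Spinal control 3, which stayed in that fit, read 4.15 for the muscle gene Myh4. Thus no fit left out every spinal control with high muscle signal. Values of the gene lists and cell markers below include all arrays and were not fitted again with arrays left out. The part of the uneven arrays in the results was not tested beyond that.

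At each day more of the 10 genes were called in the spinal cord than in the cerebrum. All genes on the array showed the same contrast. In the cord 6224, 3356 and 5064 of all genes were called at days 1, 3 and 7. In the cerebrum 3341, 963 and 796 were called at these days. The contrast between tissues is therefore not particular to the 10. Of the 10, 3 were higher and 1 lower in the cord at day 1, 4 were higher at day 3 and 5 were higher at day 7. Of all genes, 15.8% were higher and 16.1% lower at day 1, 9.28% were higher at day 3 and 13.1% at day 7, so the 1 gene lower at day 1 was near the share of all genes. In the cerebrum 1 of the 10 was called at day 1, 2 at day 3 and 1 at day 7, all higher, against 8.91%, 2.86% and 3.06% of all genes called higher, and at day 1 that share is near the background. Without the first spinal day 3 array the day 3 count in the cord was 5, with Il10ra called higher, Retnla called lower and Mrc1 not called. The median change of the 10 from control was 0.18, 0.43 and 0.62 in the cord at days 1, 3 and 7, and 0.17, 0.04 and 0.19 in the cerebrum. The same median over all genes lay between -0.10 and 0.02. Because these are whole tissues, more or fewer cells of a type and more or less RNA per cell cannot be told apart in any of these values.

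Arg1 (RefSeq GRCm38.p6, chr10:24915207-24927470) had the largest range of the 10, 7.81 log2 units over the 32 arrays. On the spinal arrays it read -0.24, -0.57, -0.50 and -0.18 in controls, 3.28, 3.61, 2.89 and 1.5 at day 1, 6.19, 3.49, 5.82 and 7.08 at day 3, with 5.91, 5.78, 5.31 and 6.57 at day 7. Every injured cord array lay above every spinal control. The increase over control was 3.19 ± 0.44 at day 1 (9.13-fold, limma adjusted p = 2.07e-06), 6.01 ± 0.44 at day 3 (64.6-fold, adjusted p = 2.89e-11) and 6.26 ± 0.44 at day 7 (76.9-fold, adjusted p = 7.9e-13). At day 3 in the cord, Arg1 had the highest log2 difference of all 19505 genes. Its rank was 22 at day 1 and 10 at day 7. Day 3 exceeded day 1 by 2.82 ± 0.44 (adjusted p = 8.19e-05), and day 7 exceeded day 1 by 3.07 ± 0.44 (adjusted p = 4.14e-06), while day 7 against day 3 differed by 0.25 ± 0.44 (adjusted p = 1). The day 3 increase was 5.26 with values as deposited, 6.61 with the offset rebuilt from 16 arrays in place of 8 and 6.73 without spinal day 3 replicate 2. The day 7 increase was 7.38 with 16 arrays and 4.0 after quantile normalization, and the excess of day 7 over day 1 was then 1.02 (adjusted p = 0.43), against 4.19 with 16 arrays. The excess of day 3 over day 1 was 2.07 with values as deposited, 3.42 with 16 arrays and 3.54 without spinal day 3 replicate 2.

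**Figure D1:**
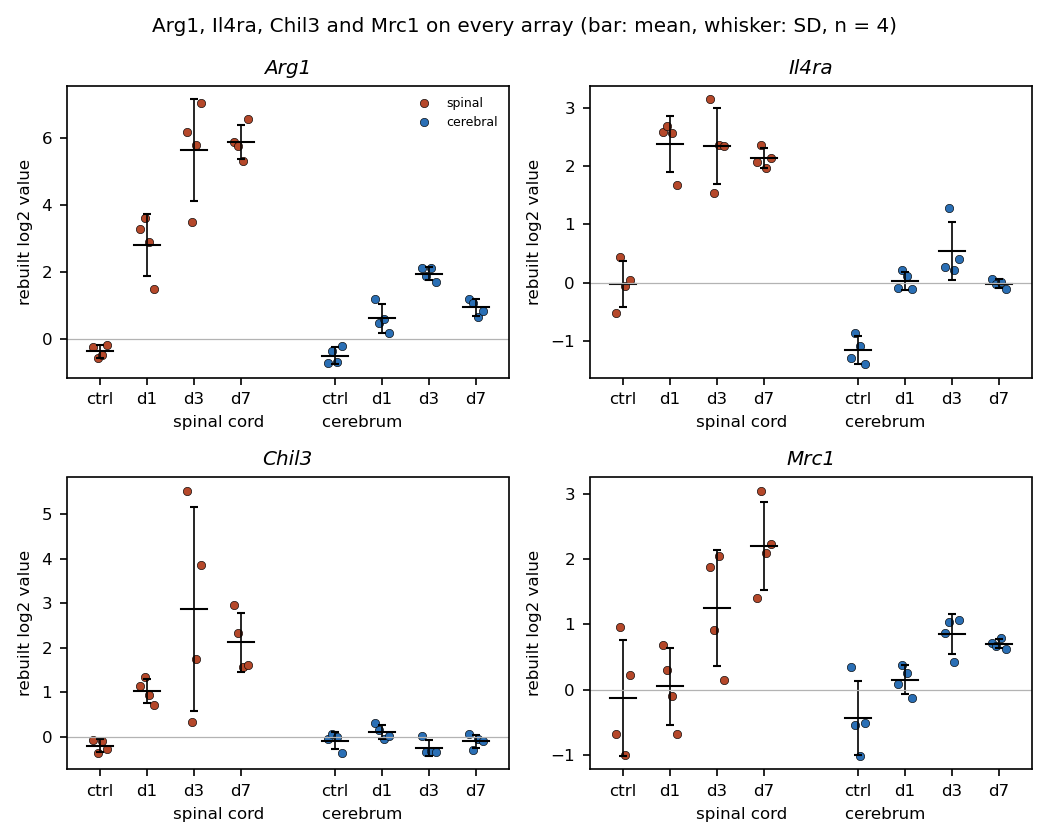
Rebuilt log2 values of Arg1, Il4ra, Chil3 and Mrc1 on each of the 32 arrays, with spinal cord groups on the left of each panel and cerebral groups on the right (control, days 1, 3 and 7). Bars are means and whiskers SD of 4 arrays; Arg1 reached 5.31 to 6.57 in the cord at day 7, and Chil3 stayed between -0.38 and 0.30 on all cerebral arrays.

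In the cerebrum Arg1 rose less and its highest values came at day 3. The arrays read -0.73, -0.38, -0.71 and -0.20 in controls, 1.20, 0.47, 0.58 and 0.18 at day 1, 2.11, 1.88, 2.12 and 1.70 at day 3, with 1.19, 1.09, 0.66 and 0.83 at day 7. Here too every injured array lay above every control of its tissue. The day 3 increase was 2.46 ± 0.44 (5.49-fold, limma adjusted p = 0.000672), or 3.63 after quantile normalization (adjusted p = 2.01e-06), 1.70 with values as deposited and 3.05 with the offset rebuilt from 16 arrays. At day 1 the difference was 1.11 ± 0.44 (adjusted p = 0.0786) and at day 7 it was 1.44 ± 0.44 (adjusted p = 0.113), neither past the threshold. These 2 tests used a spread shared with the cord, where the SD of Arg1 was 1.53 at day 3, against 0.20 to 0.43 in the cerebral groups. When only cerebral arrays were fitted, both passed, with adjusted p = 6.62e-05 at day 1 and 2.26e-05 at day 7. With 16 arrays the day 7 difference was 2.56 (adjusted p = 0.000349).

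The Arg1 change was larger in the cord than in the cerebrum at every day. The spinal change exceeded the cerebral change by 2.08 ± 0.62 at day 1 (4.22-fold, limma adjusted p = 0.0269), by 3.56 ± 0.62 at day 3 (11.8-fold, adjusted p = 0.000484) and by 4.82 ± 0.62 at day 7 (28.3-fold, adjusted p = 7.43e-07). Controls of the 2 tissues differed by 0.13 ± 0.44 (spinal minus cerebral, adjusted p = 0.856). The day 1 value did not pass after quantile normalization (1.49, adjusted p = 0.128), with robust variance estimates (adjusted p = 0.0523), without cerebral control 4 (1.98), spinal day 1 replicate 1 (1.92) or replicate 2 (1.81), or with controls 3 and 4 only of either tissue. After quantile normalization the day 3 value was 1.90 (adjusted p = 0.0739) and the day 7 value 2.25. Without spinal day 3 replicate 2 the day 3 value was 4.28. In order of their means the groups ran from spinal day 7 (5.89 ± 0.52, SD) and spinal day 3 (5.64 ± 1.53), which differed by less than their spread, through spinal day 1 (2.82 ± 0.93), cerebral day 3 (1.95 ± 0.20), cerebral day 7 (0.94 ± 0.24) and cerebral day 1 (0.61 ± 0.43) to spinal control (-0.37 ± 0.19) and cerebral control (-0.50 ± 0.26). Spinal day 1 and cerebral day 3 overlapped, as did cerebral days 7 and 1 and the 2 control groups.

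Arg2 (chr12:79130788-79156301), the mitochondrial arginase, showed no called change after injury in either tissue. Its cerebral day 1 arrays all lay below the cerebral controls, but the difference of -0.28 did not pass. Its spinal day 7 arrays read -0.36, -0.69, -1.04 and -0.99, and spinal controls -0.32, -0.58, -0.55 and -0.40, a difference of -0.31 ± 0.18 (limma adjusted p = 0.809). It differed between tissues: spinal controls were lower than cerebral controls, which read 0.33, 0.50, 0.24 and 0.29, by 0.80 ± 0.18 on the log2 scale (adjusted p = 0.000804). None of these control arrays overlapped. Arg2 was also lower in cord than in cerebrum at day 3 (-0.53 ± 0.18, adjusted p = 0.022) and day 7 (-0.91 ± 0.18, adjusted p = 0.000104). The day 3 call was lost without spinal day 3 replicate 2 (-0.39) or 3 (-0.43), or cerebral day 3 replicate 2 (-0.45) or 4 (-0.51), and the change from control was not shown to differ between tissues at any day (adjusted p = 0.245, 0.589 and 0.796). Both arginase genes thus had separate courses, Arg1 far above control in the cord and Arg2 between -0.31 and 0.18 of it.

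Nos2 (chr11:78920787-78960226) moved little. In the cord at day 1 it read 0.53, 0.47, 0.24 and 0.39, against 0.01, -0.03, -0.07 and 0.11 in controls. All 4 injured arrays lay above the controls, with a difference of 0.40 ± 0.12 (1.32-fold, limma adjusted p = 0.00958), which did not pass with spinal controls 3 and 4 only (0.39, adjusted p = 0.0555). Spinal day 3 read 0.22, 0.26, 0.16 and 0.86, with the fourth array apart, and the difference from control was 0.37 ± 0.12 (adjusted p = 0.275). At day 7 the difference in the cord was 0.00029 ± 0.12, and a change within the bound of 0.262 cannot be told from none. Day 7 minus day 1 was -0.40, which was not called but passed in 2 of 17 alternative fits. In the cerebrum the differences were 0.28 ± 0.12, 0.31 ± 0.12 and 0.24 ± 0.12 at days 1, 3 and 7 (adjusted p = 0.0991, 0.803 and 1), of which day 1 passed after quantile normalization (adjusted p = 0.0314).

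Of the wider arginine and polyamine genes, 19 of 23 listed were measured. In the cord 8 were higher and 3 lower at day 1, 9 higher and 1 lower at day 3, and 6 higher and 2 lower at day 7, with median changes of 0.19, 0.46 and 0.17. In the cerebrum 6 were higher and 1 lower at day 1, 5 were higher at day 3 and 2 at day 7. Of all genes, 15.8%, 9.28% and 13.1% were higher in the cord at days 1, 3 and 7, and 8.91%, 2.86% and 3.06% in the cerebrum. Called lower were 3141, 1546 and 2510 of all 19505 genes in the cord at days 1, 3 and 7. In the cerebrum 1604, 406 and 200 were called lower at these days. The counts higher and lower in this list and the lists below are to be read against these. Odc1, which makes putrescine from ornithine, rose in the cord by 1.5 ± 0.19 at day 1 and 1.54 ± 0.19 at day 3, and in the cerebrum by 0.77 ± 0.19 and 1.08 ± 0.19. Sat1, which acetylates polyamines for export or breakdown, rose in the cord by 0.78 ± 0.21, 1.67 ± 0.21 and 2.44 ± 0.21 at days 1, 3 and 7, and in the cerebrum by 0.87 ± 0.21, 1.66 ± 0.21 and 1.53 ± 0.21. Sms, spermine synthase, fell in the cord by 1.02 ± 0.13, 0.87 ± 0.13 and 1.92 ± 0.13 on the log2 scale. Gch1, whose product starts the synthesis of the nitric oxide synthase cofactor, rose in the cord by 1.24 ± 0.25, 1.48 ± 0.25 and 1.71 ± 0.25. Slc7a2, an arginine transporter named here after its values were seen, was 0.84 ± 0.20 and 0.77 ± 0.20 above control in the cord at days 3 and 7. The spinal change was larger than the cerebral change for none of the 19 at day 1, for Ddah1 at day 3 and for Sat1 at day 7. It was lower for 1, 2 and 4 genes at days 1, 3 and 7, with Gatm, which makes a creatine precursor from arginine, at -1.67, -1.52 and -2.11. By this test 917, 796 and 2541 of all 19505 genes were higher at days 1, 3 and 7. Those called lower were 1283, 1012 and 2841, and the counts among the 19 are to be read against these.

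Il4ra (chr7:125552271-125579474), the shared receptor chain for IL-4 and IL-13, was called higher at every day in both tissues, the only one of the 10 genes for which that held. Spinal arrays read -0.51, 0.44, -0.06 and 0.06 in controls, 2.58, 2.68, 2.57 and 1.67 at day 1, 3.14, 1.53, 2.36 and 2.34 at day 3, with 2.07, 2.37, 1.97 and 2.14 at day 7. Cerebral arrays read -1.28, -0.85, -1.07 and -1.39 in controls, -0.09, 0.22, 0.11 and -0.10 at day 1, 0.27, 1.28, 0.23 and 0.41 at day 3, with 0.07, -0.02, 0.02 and -0.11 at day 7. No injured array overlapped the controls of its tissue. In the cord Il4ra was 2.39 ± 0.25 (5.25-fold), 2.36 ± 0.25 and 2.16 ± 0.25 above control (limma adjusted p = 1.89e-08, 2.04e-07 and 1.7e-07). No pair of spinal days differed past the threshold. After quantile normalization the spinal day 3 increase was 1.69 and the day 7 increase 1.14, below day 1 by 1.13 on the log2 scale (adjusted p = 0.00486). In the cerebrum the increases were 1.18 ± 0.25, 1.70 ± 0.25 (3.24-fold) and 1.14 ± 0.25 (adjusted p = 0.00113, 0.000384 and 0.0283). The cerebral day 7 call was lost without any 1 of cerebral controls 1, 3 and 4 or cerebral day 7 replicates 1, 2 and 3, where the adjusted p lay between 0.0534 and 0.0985, and with cerebral controls 3 and 4 only (adjusted p = 0.0754).

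Il4ra was already higher in spinal than in cerebral controls, by 1.13 ± 0.25 (limma adjusted p = 0.00045), and injured cerebral arrays overlapped the spinal controls at every day. The spinal change exceeded the cerebral change by 1.21 ± 0.35 at day 1 (adjusted p = 0.0222) and 1.02 ± 0.35 at day 7 (adjusted p = 0.0281), and by 0.67 ± 0.35 at day 3 (adjusted p = 0.252). The day 1 value did not pass without spinal control 1 (1.04) or spinal day 1 replicate 2 (1.11), or with cerebral controls 3 and 4 only (1.13). The day 7 value did not pass without spinal control 1 (0.85), cerebral control 2 (0.92) or spinal day 7 replicate 2 (0.94), nor with controls 3 and 4 only of either tissue, and after quantile normalization it was -0.0049 (adjusted p = 0.993).

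Around the receptor, 13 of 15 listed IL-4 and IL-13 signalling genes were measured. In the cord 5 were higher and 1 lower at day 1, 4 higher at day 3, and 3 higher and 1 lower at day 7, with median changes of 0.33, 0.18 and -0.05. In the cerebrum 2 were higher and 2 lower at day 1, and 1 was higher at each of days 3 and 7, which with 13 genes is near the shares of all genes (2.86% and 3.06%). Il13ra1, the second chain of the receptor outside lymphocytes, rose in the cord by 1.41 ± 0.23, 1.85 ± 0.23 and 2.10 ± 0.23 at days 1, 3 and 7. Stat6 was 0.50 ± 0.28 above control at day 1 (adjusted p = 0.178) and rose by 1.57 ± 0.28 at day 3 and 2.49 ± 0.28 at day 7. Ptpn6, a phosphatase of blood cells that damps this pathway, rose by 2.39 ± 0.30 and 3.78 ± 0.30 in the cord at days 3 and 7, and by 1.64 ± 0.30, 1.46 ± 0.30 and 2.08 ± 0.30 in the cerebrum at days 1, 3 and 7. The ligands, named after their values were seen, did not pass: Il4 lay between -0.21 and -0.12 and Il13 between -0.26 and 0.20 of control in the 6 comparisons.

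Il10 (chr1:131019845-131024970) and its receptor gene Il10ra (chr9:45253837-45269149) took different courses. Il10 had the smallest range of the 10 genes, 0.68 over all arrays, and no comparison called it. At day 3 its spinal arrays read -0.20, -0.18, -0.36 and -0.29, all below the spinal controls at 0.11, -0.0037, -0.12 and 0.16, with a difference of -0.29 ± 0.10 (limma adjusted p = 0.689). Cerebral day 3 arrays were also all below their controls, by 0.21 on average. Il10ra, the ligand-binding chain of the receptor, read 1.18, 1.42, 1.06 and 0.93 in the cord at day 7, against -0.18, 0.03, -0.01 and 0.08 in spinal controls. The increase was 1.17 ± 0.13 (2.24-fold, adjusted p = 7.69e-07), and no array overlapped. After quantile normalization it was 0.68 (adjusted p = 0.0167). It also exceeded spinal day 1 by 1.14 ± 0.13 (adjusted p = 2.23e-06). In the cerebrum at day 7 the difference was 0.34 ± 0.13 (adjusted p = 1), and the spinal change was larger by 0.82 ± 0.19 (adjusted p = 0.00103), or 0.28 after quantile normalization (adjusted p = 0.334).

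At day 3 in the cord Il10ra read -0.09, 0.67, 0.69 and 0.62, and the difference of 0.49 ± 0.13 did not pass (limma adjusted p = 0.0789). The low array was the first, which stood apart in other genes. Without it the difference was 0.68 (adjusted p = 0.00111). Of 10 listed IL-10 signalling genes 9 were measured, and 7 were higher in the cord at each of days 1, 3 and 7, with medians of 1.76, 1.77 and 1.57. In the cerebrum 4, 3 and 2 were higher at days 1, 3 and 7, with medians of 0.44, 0.50 and 0.37. The cord genes were Bcl3, a nuclear IkappaB protein (2.55 ± 0.17, 2.39 ± 0.17 and 1.75 ± 0.17), Hmox1, which breaks down haem (2.22 ± 0.37, 3.39 ± 0.37 and 3.23 ± 0.37), and Il1rn, the IL-1 receptor antagonist (2.04 ± 0.30, 2.20 ± 0.30 and 3.03 ± 0.30), among others. Hmox1 rose in the cerebrum as well, by 1.93 ± 0.37, 2.03 ± 0.37 and 1.56 ± 0.37. These genes answer to signals other than IL-10 too, and the list was not tested against other lists.

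Chil3 (chr3:106147554-106167564) encodes a chitinase-like protein of mouse macrophages and neutrophils, and it was called higher in the cord and not called in the cerebrum. Spinal arrays read -0.08, -0.37, -0.09 and -0.28 in controls, 1.14, 1.33, 0.93 and 0.70 at day 1, 5.53, 0.33, 1.75 and 3.85 at day 3, with 2.97, 2.34, 1.57 and 1.62 at day 7. All 12 injured cord arrays lay above the controls, and day 3 had by far the widest spread (SD 2.29). The increase was 3.07 ± 0.54 at day 3 (8.40-fold, limma adjusted p = 0.000114) and 2.33 ± 0.54 at day 7 (5.03-fold, adjusted p = 0.00185). At day 1 it was 1.23 ± 0.54 (adjusted p = 0.0805), which passed with array weights (adjusted p = 0.0173) and after quantile normalization (adjusted p = 0.00924). The highest day 3 value came from the array that stood apart, and without it the increase was 2.18 (adjusted p = 0.000312). It was 3.91 without spinal day 3 replicate 2, 2.24 with array weights and 2.32 after quantile normalization. Day 3 exceeded day 1 by 1.84 ± 0.54 (adjusted p = 0.0368), but by 0.95 without that array (adjusted p = 0.208), and the call was also lost without spinal day 3 replicate 4 (1.51), without spinal day 1 replicate 1 (1.88), 3 (1.80) or 4 (1.73), with spinal arrays alone, with array weights, with robust variance estimates and after quantile normalization. After quantile normalization the day 7 increase was 1.33.

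Cerebral Chil3 arrays read 0.30, 0.15, -0.05 and 0.01 at day 1, 0.02, -0.36, -0.33 and -0.34 at day 3, with 0.06, -0.30, -0.06 and -0.11 at day 7, against -0.05, 0.06, -0.01 and -0.38 in controls. All 3 days overlapped the controls, and the differences were 0.20, -0.16 and -0.0067, each ± 0.54 (limma adjusted p = 0.851, 1 and 1). The spinal change exceeded the cerebral change by 3.23 ± 0.76 at day 3 (9.37-fold, adjusted p = 0.00632) and 2.34 ± 0.76 at day 7 (5.05-fold, adjusted p = 0.0211). Without the first spinal day 3 array the day 3 value was 2.34 (adjusted p = 0.0065), and without the second it was 4.07. It was 2.39 with array weights and 2.52 after quantile normalization. At day 1 the difference was 1.03 ± 0.76 (adjusted p = 0.394). The day 7 value did not pass without spinal day 7 replicate 1 (2.06), with controls 3 and 4 only of either tissue, or after quantile normalization (1.30, adjusted p = 0.11).

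Retnla (chr16:48842609-48844461), which encodes the secreted protein known as FIZZ1 or RELM-alpha and is a target of IL-4 beside Arg1 and Chil3 in mouse macrophages, did not rise. Spinal day 1 arrays read -0.22, -0.16, -0.32 and -0.44, all below the spinal controls at -0.03, 0.29, 0.00 and 0.54. The difference was -0.49 ± 0.14 (limma adjusted p = 0.00916), and -0.37 without spinal control 4 (adjusted p = 0.0538). Spinal day 7 arrays, at -0.17, -0.31, -0.30 and -0.26, were also all below the controls (-0.46 ± 0.14, adjusted p = 0.36). At day 3 the difference was -0.45 ± 0.14 (adjusted p = 0.174), and -0.57 without the array that stood apart (adjusted p = 0.0492). In the cerebrum differences ran from -0.33 to 0.14 and none passed. The spinal change lay below the cerebral change at day 7 by 0.60 ± 0.20 on the log2 scale (adjusted p = 0.0233), a call lost without any 1 of cerebral control 3, spinal control 4 and cerebral day 7 replicates 2 and 3, and after quantile normalization. Of the targets that mouse macrophages share under IL-4, Arg1 was 6.26, Chil3 2.33 and Mrc1 2.32 above control in the cord at day 7. Retnla was not called there, at 0.46 below control on the log2 scale.

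**Figure D2:**
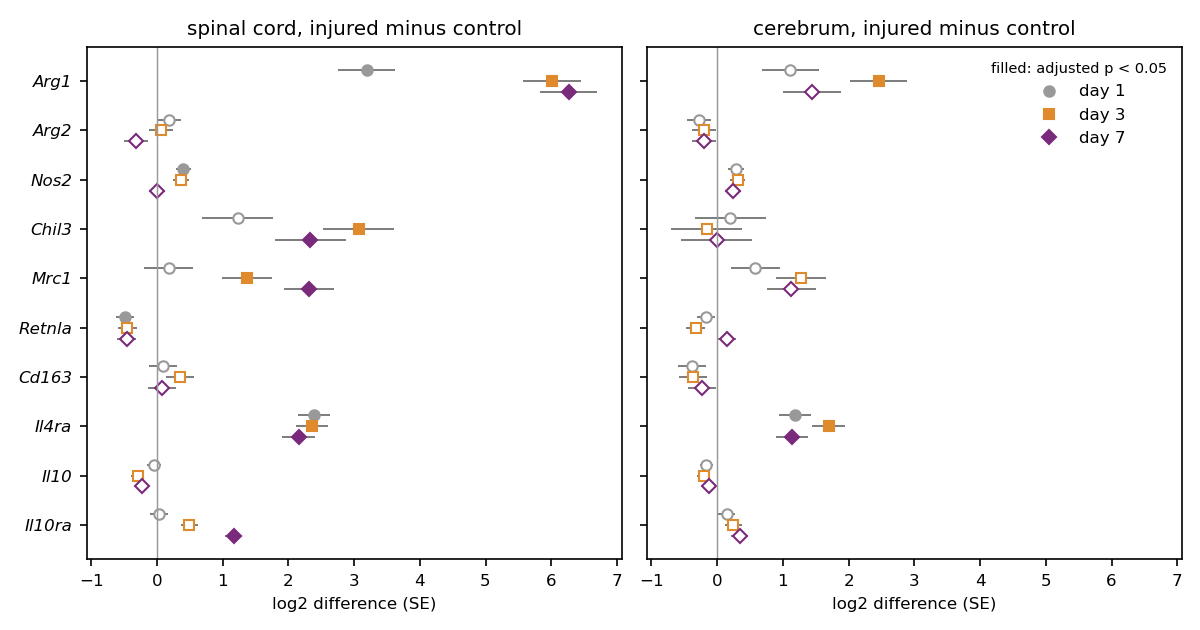
Log2 difference from control of each of the 10 genes at days 1, 3 and 7 in spinal cord (left) and cerebrum (right), with SE. Filled symbols passed an adjusted p of 0.05. Arg1 and Il4ra lie to the right in both tissues. Chil3, Mrc1 and Il10ra have filled symbols in the cord only, as do Nos2 (higher) and Retnla (lower) at day 1.

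Of 15 other listed targets of alternative activation 13 were measured. In the cord 6 were higher at day 1 and 2 at each of days 3 and 7, with median changes of 0.35, 0.03 and 0.06. For days 3 and 7, 2 of 13 is near the 9.28% and 13.1% of all genes called higher. In the cerebrum 1 was lower at day 1, none was called by limma at day 3, and 1 was higher and 1 lower at day 7. Msr1, a scavenger receptor, rose in the cord by 1.74 ± 0.25, 2.03 ± 0.25 and 3.11 ± 0.25 at days 1, 3 and 7, and Tgm2, a transglutaminase, by 1.59 ± 0.21, 1.20 ± 0.21 and 1.83 ± 0.21. Egr2, a transcription factor, went in opposite directions at day 1, 1.67 ± 0.43 above control in the cord and 1.77 ± 0.43 below it on the log2 scale in the cerebrum, and the difference of the changes was 3.44 (limma adjusted p = 0.000396). The chemokine Ccl22 and the lectins Mgl2 and Clec10a, named after their values were seen, lay within 0.33 of control in all 6 comparisons, and none passed.

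Mrc1 (chr2:14229414-14332023), the mannose receptor CD206 of border macrophages and many tissue macrophages, varied widely among controls. Spinal arrays read -0.67, 0.95, -1.0 and 0.23 in controls, 0.69, 0.30, -0.09 and -0.68 at day 1, 1.88, 0.91, 2.05 and 0.15 at day 3, with 1.40, 3.04, 2.09 and 2.23 at day 7. Only the day 7 arrays were clear of the controls. The difference from control was 0.18 ± 0.38 at day 1 (limma adjusted p = 0.757), 1.37 ± 0.38 at day 3 (adjusted p = 0.0166) and 2.32 ± 0.38 at day 7 (4.99-fold, adjusted p = 0.00019). The day 3 call was lost in several settings: with spinal arrays alone (adjusted p = 0.0783), after quantile normalization (1.05), and without spinal control 1 (1.18), spinal control 3 (1.08), spinal day 3 replicate 1 (1.16) or replicate 3 (1.10). The day 7 increase was 1.67 with values as deposited and 1.28 after quantile normalization (adjusted p = 0.12). Day 7 exceeded day 1 by 2.14 ± 0.38 (adjusted p = 0.000896), or 1.49 with values as deposited and 1.06 after quantile normalization (adjusted p = 0.464).

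Cerebral Mrc1 arrays read 0.35, -0.53, -1.01 and -0.51 in controls, 0.09, 0.38, 0.26 and -0.12 at day 1, 0.86, 1.04, 0.42 and 1.07 at day 3, with 0.71, 0.67, 0.79 and 0.62 at day 7. Days 3 and 7 lay wholly above the controls. The differences of 0.58, 1.28 and 1.13, each ± 0.38, did not pass (limma adjusted p = 0.32, 0.0698 and 0.592). With cerebral arrays alone days 1 and 3 passed (adjusted p = 0.0336 and 0.000342). The change was not shown to differ between tissues: the spinal change minus the cerebral change was -0.40 ± 0.53, 0.09 ± 0.53 and 1.19 ± 0.53 at days 1, 3 and 7 (adjusted p = 0.665, 0.946 and 0.0992), with a 95% confidence interval at day 3 of -1.0 to 1.18. The day 7 value passed with array weights (adjusted p = 0.0439), without spinal control 2 (1.55) and without spinal day 7 replicate 1 (1.45), and was 0.0056 after quantile normalization. At day 7 the level itself was higher in cord than in cerebrum by 1.49 ± 0.38 (adjusted p = 0.00138), or 0.29 after quantile normalization (adjusted p = 0.574).

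Cd163 (chr6:124304636-124330529), the haemoglobin scavenger receptor, is often named beside Mrc1, and no comparison with control called it. In the cord it was near the controls, with differences of 0.09, 0.35 and 0.07, each ± 0.21, and the largest value, 1.27, came from the first day 3 array. Without that array the day 3 difference was 0.0069. In the cerebrum all 12 injured arrays lay below all 4 controls: controls read 0.26, 0.13, 0.03 and 0.14, day 1 -0.35, -0.01, -0.47 and -0.13, day 3 -0.14, -0.14, -0.27 and -0.37, and day 7 -0.13, 0.0079, -0.02 and -0.24. The differences of -0.38, -0.37 and -0.23, each ± 0.21, did not pass (limma adjusted p = 0.237, 0.901 and 1), though day 1 passed with cerebral arrays alone (adjusted p = 0.012) and after quantile normalization (adjusted p = 0.0302).

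**Figure D3:**
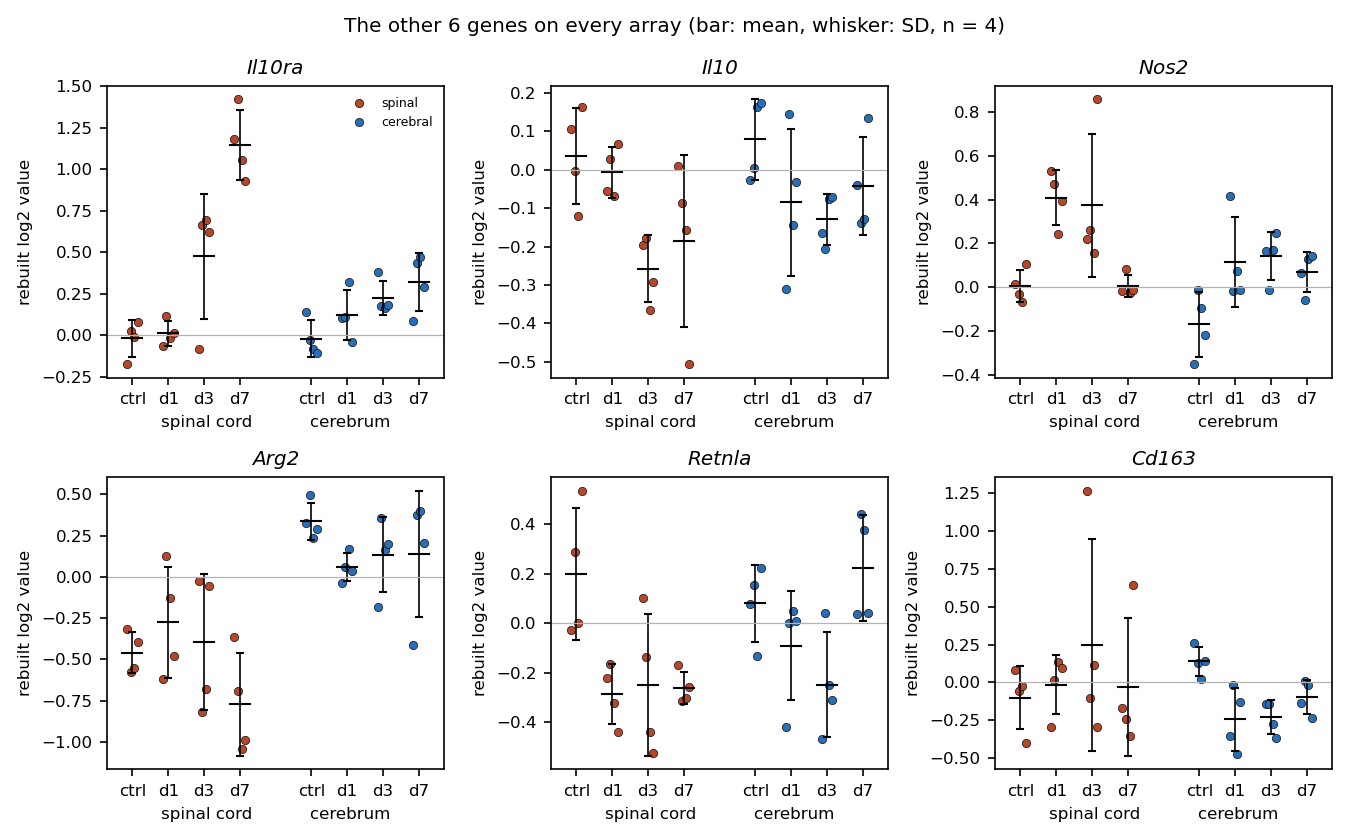
Rebuilt log2 values of Il10ra, Il10, Nos2, Arg2, Retnla and Cd163 on each array, spinal cord groups left and cerebral groups right, with a scale of its own for each gene. Bars are means and whiskers SD of 4 arrays; Il10ra at spinal day 7 (0.93 to 1.42) is clear of all other groups, and Cd163 is below the controls on all 12 injured cerebral arrays.

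The spinal change was larger than the cerebral change for 2 of the 10 genes at day 1 (Arg1 and Il4ra), 2 at day 3 (Arg1 and Chil3) and 4 at day 7 (Arg1, Chil3, Il4ra and Il10ra), against 4.70%, 4.08% and 13% of all genes. Retnla was the 1 gene lower by this test, at day 7, against 14.6%. With tissues compared directly, 1 gene was higher and 1 lower in cord than in cerebrum in controls, near the 17.2% higher and 17.6% lower of all genes. At day 1, 2 were higher (17.3% of all genes), at day 3, 3 were higher and 1 lower (18.8% and 18.9%), and at day 7, 5 were higher and 2 lower (22.8% and 24.3%). Between days in the cord, Arg1 and Chil3 were higher at day 3 than at day 1, against 5.56% of all genes, and Arg1, Mrc1 and Il10ra at day 7 than at day 1, against 11.2%. None of the 10 was called by limma between spinal days 7 and 3 (3.89% of all genes) or between cerebral days 3 and 1 (0%), 7 and 1 (1.12%) or 7 and 3 (0.128%). In limma fits of cerebral arrays alone, Arg1 was higher at day 3 than at day 1 (adjusted p = 0.00384).

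Of 22 listed classical activation genes 17 were measured, and some rose in the cord over the same days as Arg1. There 9 were higher at day 1 and 5 at each of days 3 and 7, with medians of 0.38, 0.26 and 0.35. In the cerebrum 1 was higher at each day, near the 8.91%, 2.86% and 3.06% of all genes. Il1b, the cytokine IL-1 beta, was 2.84 ± 0.50 and 2.55 ± 0.50 above control in the cord at days 1 and 3 (limma adjusted p = 7.29e-05 and 0.000547) and 0.71 ± 0.50 at day 7 (adjusted p = 0.535). Il6 followed with 2.66 ± 0.38, 1.5 ± 0.38 and 0.35 ± 0.38, of which days 1 and 3 passed, and Ptgs2, the inducible cyclooxygenase, with 2.07 ± 0.34, 1.69 ± 0.34 and 0.55 ± 0.34, likewise. Cd86, a costimulatory receptor, was the gene called in the cerebrum, at 0.78 ± 0.18, 0.92 ± 0.18 and 1.28 ± 0.18, and it rose in the cord by 0.78 ± 0.18, 1.66 ± 0.18 and 2.31 ± 0.18. Tnf and Ifng, named after their values were seen, lay between -0.27 and 0.27 of control and did not pass in any of the 6 comparisons.

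**Figure D4:**
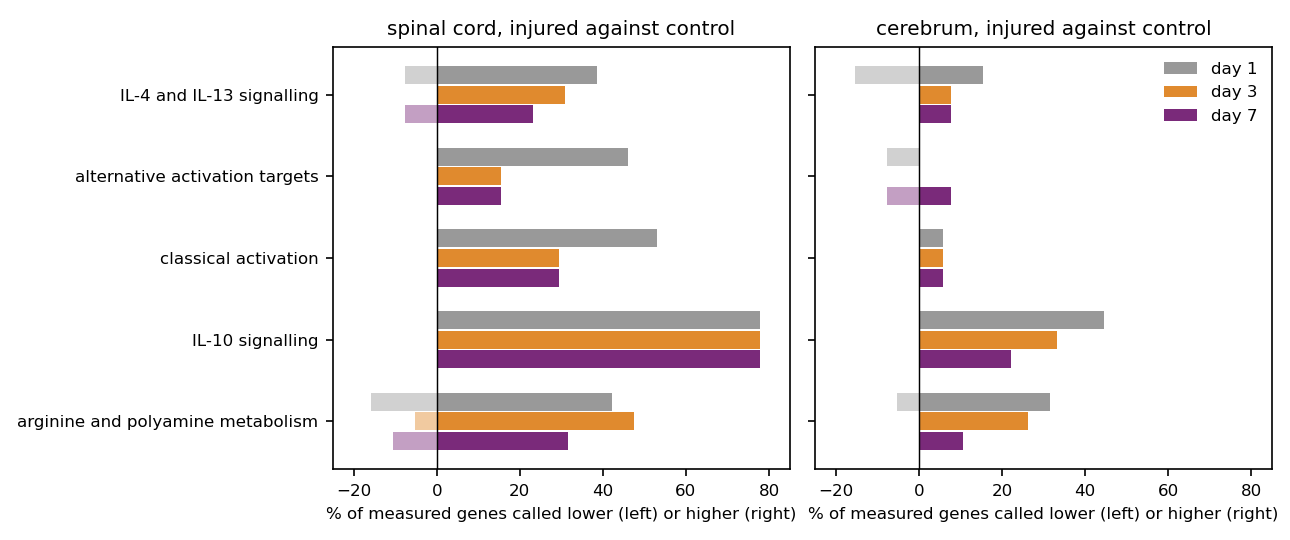
Share of the measured genes of 5 lists called higher (to the right of 0) or lower (to the left, paler) than control at days 1, 3 and 7, in spinal cord (left panel) and cerebrum (right panel). In the cord IL-10 signalling has 7 of 9 genes higher at each day. Classical activation has 9 of 17 at day 1 and 5 of 17 at each of days 3 and 7. Day 1 was tested against 0 and the later days against a bound, so these counts do not measure a fall.

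Marker lists of several cell types had called genes in the same comparisons, and their part in the results was not tested. Of 11 border macrophage markers, 5, 8 and 8 were higher in the cord at days 1, 3 and 7, and their mean ran from 2.74 to 3.28 on spinal day 7 arrays, against -0.48 to 0.51 in spinal controls. In the cerebrum 1, 3 and 5 were higher, and the mean at day 7 was 0.75 to 1.09, against -0.37 to -0.18 in controls. Ms4a7 rose by 6.38 ± 0.56, Stab1 by 5.68 ± 0.32 and Pf4 by 4.53 ± 0.38 in the cord at day 7. Of 10 monocyte and infiltrating macrophage markers, 5, 7 and 8 were higher in the cord and 6, 3 and 6 in the cerebrum, where 1 was lower at day 3. The cord mean at day 7 was 2.17 to 2.55, against -0.46 to 0.53 in spinal controls, and the cerebral mean 0.48 to 0.77, against -0.90 to -0.66 in cerebral controls. Lyz2, lysozyme of myeloid cells, rose by 6.37 ± 0.48 in the cord at day 7 and 5.04 ± 0.48 in the cerebrum.

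Of 12 neutrophil markers measured, the spinal change was larger than the cerebral change for 2 at day 1 and 10 at day 7. The shares of all genes by this test were 4.70% and 13%. The day 3 count of this test is not given here. In the cord 5 were higher and 1 lower at spinal day 1, 3 higher at day 3 and 9 higher at day 7, and in the cerebrum 1, 1 and 2 were higher. Their mean was 1.91 to 3.23 on spinal day 7 arrays and 0.07 to 0.58 in spinal controls, and it was -0.09 to 0.05 on cerebral day 7 arrays and -0.32 to -0.14 in cerebral controls. S100a8, a calcium-binding protein gene of neutrophils, rose in the cord by 2.24 ± 0.47, 1.86 ± 0.47 and 4.26 ± 0.47. The neutrophil mean over arrays was 1.02, 1.05 and 2.72 in the cord at days 1, 3 and 7.

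Of 11 microglial markers, 3 were higher and 3 lower in the cord at day 1, 5 were higher at day 3 and 6 at day 7, and in the cerebrum 6, 4 and 6 were higher. Their mean was -0.66 to -0.28 in the cord at day 1, -0.68 to 1.07 at day 3 and 1.27 to 1.46 at day 7, against -0.35 to -0.11 in spinal controls. In the cerebrum it was 0.62 to 0.73, 0.56 to 0.72 and 0.83 to 1.07, against -0.28 to -0.22 in cerebral controls. P2ry12, a purine receptor of resting microglia, fell by 2.23 ± 0.25 in the cord at day 1. Of 11 markers of T cells and type 2 cells, 3 were higher in the cord at day 1, 1 was lower at day 3 and 2 were higher at day 7, with Il7r at 4.05 ± 0.25, and in the cerebrum 1 was lower at day 1. Since the values are centred, it cannot be said which markers were absent.

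Of 6 fibroblast markers measured, 1, 4 and 5 were higher in the cord at days 1, 3 and 7, and in the cerebrum 4 at day 7. Their mean was 4.13 to 4.78 on spinal day 7 arrays, against -0.58 to 1.86 in spinal controls, and 1.21 to 1.77 on cerebral day 7 arrays, against -0.55 to -0.27 in cerebral controls. Postn, a matrix protein gene of fibroblasts, rose by 5.83 ± 0.39 in the cord at day 7. The fibroblast mean of 1.86 came from spinal control 2, the control with the highest Mrc1 value (0.95). Of 6 endothelial markers, 3 were higher and 2 lower in the cord at day 1, 4 were higher at day 3 and 2 at day 7, and in the cerebrum 4, 3 and 1 were higher. Their mean was 0.91 to 1.26 at spinal day 3, against -0.10 to 0.38 in spinal controls. The part of these cells in the Mrc1 and Arg1 values was not tested.

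**Figure D5:**
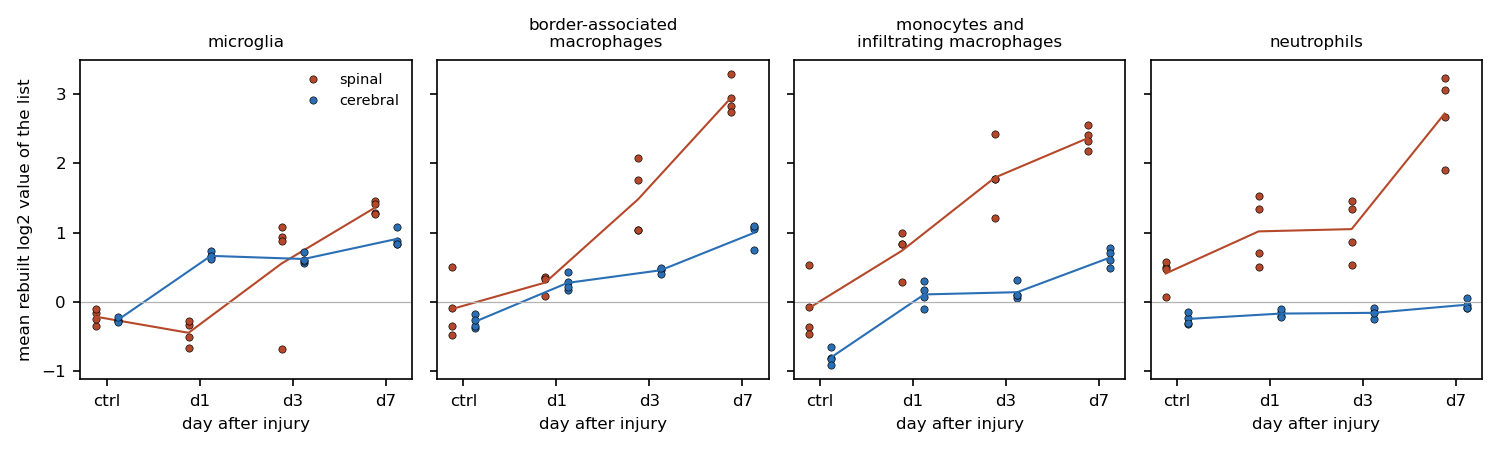
Mean rebuilt log2 value of 4 marker lists on each array, in controls and at days 1, 3 and 7, for spinal cord and cerebrum; lines join group means. All 4 means are highest in the cord at day 7, and microglial means at day 1 are higher in the cerebrum (0.62 to 0.73) than in the cord (-0.66 to -0.28).

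Over the 32 arrays the genes most like Arg1, by Pearson's r among 18458 named genes, were Thbs1 (0.960), Ppp1r14b (0.954), Elf4 (0.954), Rap1b (0.954) and Clec4d (0.952). Over the 8 group means they were Dtx3l (0.990), Pidd1 (0.987), Ctsc (0.985), Eif4ebp1 (0.985) and Rap1b (0.985). These arrays share tissue and day, so the values describe a common course over groups and are no measure of independent agreement. Thbs1, a secreted matrix glycoprotein gene, averaged 2.84, 3.86 and 4.40 in the cord at days 1, 3 and 7, against -0.08 in spinal controls, and 0.03, 0.97 and 0.10 in the cerebrum, against -0.89 in cerebral controls. Among the other 9 genes r with Arg1 was 0.870 for Il4ra, which ranked 252, 0.834 for Chil3, 0.712 for Mrc1, 0.690 for Il10ra, 0.467 for Nos2, 0.214 for Cd163, -0.491 for Arg2, -0.562 for Retnla and -0.611 for Il10.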

How the data were processed

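Total RNA from 32 tissue samples was measured on arrays. The authors' deposited table holds log2 values for 22206 probes, each centred on its median; the sources used here do not give the summarisation, the software or the genome build. The number of arrays limits the precision. In controls with day 1 the median was 0 in 100% of probes. For day 3 and day 7 a probe offset was solved as the shift that makes the median over the 8 controls plus that day's 8 arrays 0, and its range divided by 2, plus an allowance (0.196 at day 3, 0.262 at day 7, the largest mismatch found), formed the bound. Of testable probes, 86.8% (day 3) and 86.4% (day 7) matched this rule, more than under the other partners tried. Of the probes, 19572 had 1 symbol and 55 genes had several, which were averaged.

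Group means were fitted with limma 3.58.1 (R 4.3.3) on 24 residual degrees of freedom, with 19 comparisons of 8 groups. Changes across separately centred arrays were tested against the bound and other differences against 0, with adjusted p under 0.05 called. The genes named are the 10 chosen, list and marker genes among the 4 largest called changes of a comparison, and the 5 most like Arg1; others are said to be named after their values were seen. Members and lists were chosen with earlier results of these data known. Alternatives were 12 other settings, 2 of them (controls 3 and 4 only) added after seeing the data, and leaving out each of the 32 arrays. Promoters came from RefSeq, GRCm38.p6. A further set of promoter letters is not reported here.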

Additional observations from a re-analysis of the deposited data

Results flagged for a closer look

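Single arrays stood far from the other 3 of their group in 7 of 80 combinations of gene and group, by Dixon's test of the gap to the nearest array. Chance alone gives about 1 in 20. The highest array was apart for Nos2 at spinal day 3 (0.857) and spinal day 7 (0.082), for Chil3 at cerebral day 3 (0.017) and for Il10ra at cerebral day 3 (0.379). The lowest array was apart for Retnla at cerebral day 1 (-0.421), Il4ra at spinal day 1 (1.67) and Il10ra at spinal day 3 (-0.086). The last is the spinal day 3 array that also stood apart in microglial markers.

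The change from control differed between cord and cerebrum, by limma's test of the difference itself, for 5 genes. The spinal change minus the cerebral change was 2.08, 3.56 and 4.82 for Arg1 at days 1, 3 and 7 (adjusted p = 0.0269, 0.000484 and 7.43e-07). For Chil3 it was 3.23 at day 3 and 2.34 at day 7 (adjusted p = 0.00632 and 0.0211). Without the first spinal day 3 array the day 3 value was 2.34 (adjusted p = 0.0065). For Il4ra it was 1.21 at day 1 and 1.02 at day 7 (adjusted p = 0.0222 and 0.0281). Il10ra differed by 0.82 at day 7 (adjusted p = 0.00103) and Retnla by -0.60 at day 7 (adjusted p = 0.0233).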

How the results depend on the processing

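Under 12 other settings and 32 fits leaving out 1 array, 1 value for the 10 genes changed sign among those called: the spinal minus cerebral change of Il4ra at day 7, -0.0049 after quantile normalization. Of the counts of the 10 genes called, spinal day 3 was 4, but 7 with values as deposited and 8 where the rebuilt offset had no bound. At cerebral day 1 the count was 1, but 4 after quantile normalization, 4 with cerebral arrays alone and 2 with array weights. Cerebral day 7 was 1, but 3 with no bound, 2 with 16 partner arrays, 2 after quantile normalization, 2 with cerebral arrays alone, 2 with array weights and 0 with cerebral controls 3 and 4 only. The difference between tissues at day 1 was called for 2 genes, but for 1 after quantile normalization, 1 with robust variance, 1 with spinal controls 3 and 4 only and 0 with cerebral controls 3 and 4 only. At day 3 it was 2, but 1 after quantile normalization, and at day 7 it was 5, but 1 after quantile normalization and 3 with controls 3 and 4 only of either tissue. Over the 12 settings the genes called among all 19505 ranged from 1984 to 7470 at spinal day 3 (3356 as reported), 2529 to 9754 at spinal day 7 (5064), 2115 to 5096 at cerebral day 1 (3341), 730 to 3888 at cerebral day 3 (963), 646 to 4340 at cerebral day 7 (796) and 3232 to 5886 for the difference at day 7 (5382). With scaling to the 75th percentile, the share of all called genes that were higher was 63.7% at cerebral day 1 (52.0% as reported), 26.8% (41.7%) and 31.0% (44.0%) for the difference at days 1 and 3, and 36.8% (48.1%) for cord against cerebrum at day 1. With no bound it was 43.1% at spinal day 3 (53.9%) and 51.9% at cerebral day 7 (74.9%), 57.6% there with values as deposited and 64.5% after quantile normalization. Leaving out 1 array gave 0 to 1 for cerebral day 7 and 0 to 2 for the difference at day 1. Quantile normalization gives every array the same spread. Before it, the SD over genes was 0.79 to 0.91 on spinal day 7 arrays and 0.30 to 0.43 on cerebral arrays. The cause of the changes under this setting and the others was not tested. Scaling to the 75th percentile and taking the probe with the highest mean ended or added no call among the 10. With 4 arrays a group, differences from control below the bound at days 3 and 7 cannot be told from the offset. No paired analysis was possible because the labels give no replicate numbers that link arrays across groups.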
